A study of Oncorhynchus mykiss with 6 samples.

Results

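The miRNAs described here are miR-33, miR-103 and miR-107, known in mammals for their part in lipid and insulin metabolism. They were found in the authors' deposited table as the rows whose name, without the final -x, -y or -z, is exactly miR-33, miR-103 or miR-107, which gave 8 of the 1939 entries. The data are small RNA counts from the dorsal skin of 45-day-old rainbow trout (Oncorhynchus mykiss). The 3 YR libraries came from fish labelled yellow mutant, with yellow skin, and the 3 WR libraries from wild-type fish with black skin. The labels do not name the mutated gene, and they do not say whether each library is a separate fish. A p-value here therefore reflects the spread between libraries, part or all of which may be technical. The series asks which miRNAs may take part in forming the 2 skin colours.

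A miRNA is a short RNA cut from one arm of a hairpin precursor, and it represses messenger RNAs that pair with its seed, bases 2 to 8. In mammals, miR-33 lies in introns of the SREBF genes, which encode the transcription factors that switch on sterol and fatty acid synthesis, and it represses ABCA1, the pump that loads cholesterol onto lipoproteins. In mammals, miR-103 and miR-107 lie in introns of the PANK genes, which encode the first enzyme of coenzyme A synthesis, and in mice they lower insulin sensitivity. Mature miR-33 is mainly the 5p arm, and mature miR-103 and miR-107 are the 3p arm, so that x is read here as 5p and y as 3p. An entry ending in z has no stated arm.

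The 8 entries held only 6 distinct sequences, shown here because the names and the sequences cross over. Each is written as the table lists it, 5′ to 3′, in DNA letters with the seed in capitals.
miR-33-x: gTGCATTGtagttgcattgca
miR-33-y: cAATGTTCctgcagtgcaaga
miR-103-y and miR-107-z: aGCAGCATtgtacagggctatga
miR-103-z and miR-107-y: aGCAGCATtgtacagggctatc
miR-103-x: aGCCTCTTtatgatgctgcct
miR-107-x: aGCTTCTTtacagtgttgcct
The miR-103-y sequence, of 23 bases, is the one that miR-107-z lists, and the miR-107-y sequence, of 22 bases, is the one that miR-103-z lists. Counted from 1 at the 5′ end, miR-103-y differs from miR-107-y by G22C, and it has 1 base more at its 3′ end. Both carry the same seed, and 0 entries outside miR-103 and miR-107 carry it. The seed of miR-33-x is likewise found in 0 other entries.

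The sequence of miR-33-x holds its own seed a second time, at bases 13 to 19. Such a repeat of the seed within the same miRNA was found in 7 of the 1601 distinct sequences of the table, or 0.437%. The opposite arms of miR-103 and miR-107 differ at 5 positions from miR-103-x to miR-107-x, C4T, T11C, G12A, A13G and C16T. Bases 13 to 19 of miR-103-x pair with all 7 bases of the seed of miR-103-y by Watson-Crick pairs. In miR-107, the same stretch pairs with 5 by Watson-Crick pairs and with 2 by G-U wobble, at the positions changed by A13G and C16T.

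Levels are given in TPM, the authors' depth-scaled unit. miR-107-y was the highest of the 8, with a mean over the 6 libraries of 189.6 TPM, followed by miR-103-z at 170.2, miR-103-y at 167 and miR-107-z at 149 TPM. By mean level miR-103-y stood at rank 110 of the 709 known entries and miR-107-z at rank 119. miR-33-x stood at rank 149 and miR-33-y at rank 216. In all 6 libraries miR-107-y was above miR-103-z and miR-103-y above miR-107-z, whereas the order of miR-103-z and miR-103-y changed between libraries. Both arms of miR-33 were below the 4 in every library. All 6 were above the median entry tested, which had a mean of 5.13 TPM. The remaining 2, miR-103-x and miR-107-x, had a mean of 0.164 and 0.434 TPM and fell below the minimum of 1 TPM for a test.

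miR-33-x is an arm that acts on ABCA1 in mammals. Its level was 66.4, 84.8 and 68.7 TPM in the YR libraries, against 81.6, 71.1 and 62.1 TPM in the WR libraries. YR replicate 2 was the highest and WR replicate 3 the lowest, and the groups overlapped. The means were 73.3 ± 10.04 TPM in YR and 71.6 ± 9.76 TPM in WR (SD, n = 3 each). miR-33-y, the opposite arm, stood at 27.2, 24.2 and 15.9 TPM in YR and at 20.3, 24.4 and 13.2 TPM in WR. Its lowest library in each group was replicate 3, and the groups overlapped here too. Its means were 22.5 ± 5.87 TPM in YR and 19.3 ± 5.66 TPM in WR (SD, n = 3 each).

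miR-103-y was at 181, 146 and 165 TPM in YR, against 180.4, 166 and 165 TPM in WR. miR-103-z was at 168, 149 and 169.6 TPM in YR, against 169.3, 172 and 194 TPM in WR. For both entries the lowest library was YR replicate 2, and the groups overlapped. miR-107-y was at 191, 171 and 188 TPM in YR, against 194, 186 and 207 TPM in WR. miR-107-z was at 159, 124 and 147 TPM in YR, against 156, 152 and 154 TPM in WR. Again YR replicate 2 was lowest, and the WR libraries of miR-107-z lay close together, so that its SD was 17.6 TPM in YR and 1.81 TPM in WR. The miR-107-y mean was 183 ± 10.6 TPM in YR and 196 ± 10.5 TPM in WR (SD, n = 3 each).

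**Figure D1:**
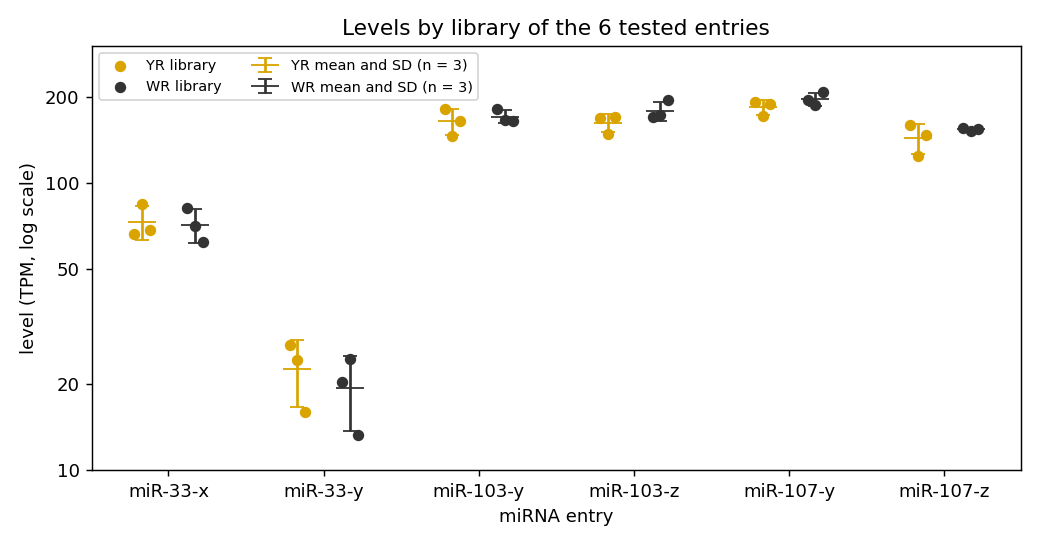
Level in TPM (log scale) of the 6 tested entries, with YR libraries in yellow and WR libraries in black; points are libraries and bars the mean and SD of 3 libraries. The groups overlap for every entry, and the 4 entries of miR-103 and miR-107 lie between 124 and 207 TPM.

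The names miR-103 and miR-107 stood for nearly the same number of reads in each library. The y and z entries of miR-103 together had 3394, 2322 and 3322 reads in YR and 2876, 2945 and 3171 in WR. Those of miR-107 together had 3403, 2329 and 3334 reads in YR and 2878, 2953 and 3195 in WR. In all 6 libraries the sum under miR-107 was the larger, by only 2 to 24 reads, or 0.0695% to 0.757% of the sum under miR-103. The split between the sequences differed with the name, however. The entry that lists the 23-base sequence held 50.2% ± 1.40 of the miR-103 reads in YR and 48.9% ± 2.86 in WR, but 43.8% ± 1.69 of the miR-107 reads in YR and 44.1% ± 1.23 in WR (SD, n = 3 each).

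For each shared sequence the y entry was larger than the z entry in all 6 libraries. miR-103-y exceeded miR-107-z by 172 to 212 reads in YR and by 92 to 202 in WR, and miR-107-y exceeded miR-103-z by 179 to 221 reads in YR and by 116 to 204 in WR. The table lists 231 sequences more than once, and in 205 of them the entries have identical counts in all 6 libraries. The sequences of miR-103 and miR-107 are among the other 26. These counts take known and predicted entries together and were not split. Of all pairs of known names, 2 share at least 2 sequences, and the other is miR-1338 with miR-1388, where the reads of the shared sequences summed to 11918 and 14683. The table does not state whether single reads were counted under both names, and this was not tested. With sums within 24 reads in every library, the 4 entries are not treated as independent measurements. Nor are the 2 names treated as separately measured miRNAs. The summed reads only set the names side by side and are not taken as levels.

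**Figure D2:**
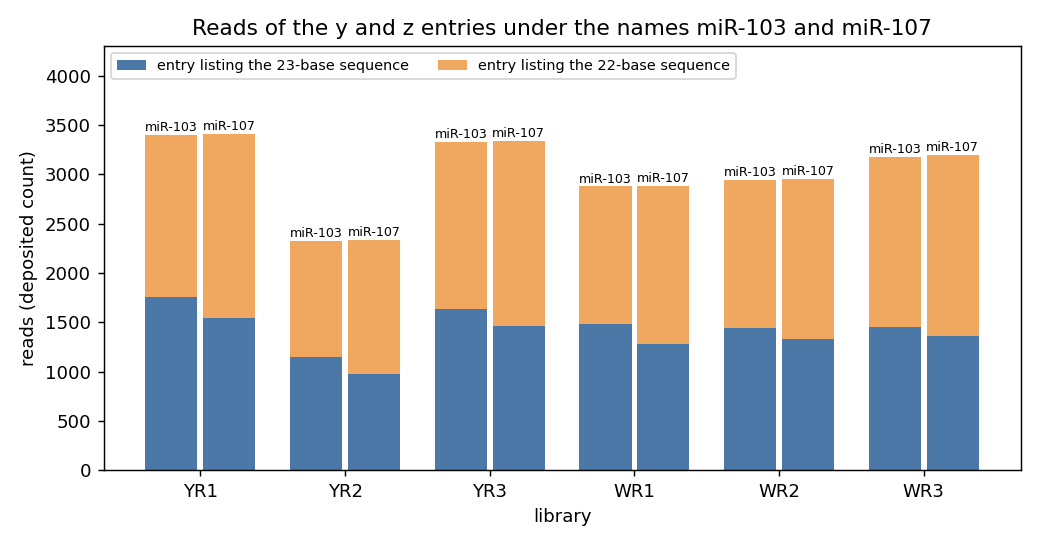
Reads (deposited counts) in each library, YR left of WR, with a bar for the y and z entries of miR-103 (left of each pair) and one for those of miR-107 (right), coloured by the length of the listed sequence. The paired bars are within 24 reads of the same height, while the blue 23-base portion is taller under miR-103 in every library.

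With miR-107 set against miR-103 over all arms, its share of the reads was 50.1% in both groups (SD 0.0278 in YR and 0.0726 in WR, n = 3 each). The y and z entries of both names list the same sequences, so this share does not measure one miRNA against the other. With only the y entries the share of miR-107 was 52.9% ± 1.36 in YR and 53.5% ± 2.02 in WR (SD, n = 3 each). The difference between the groups was smaller than the spread within each.

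None of the 6 tested entries passed the test of YR against WR. By edgeR's quasi-likelihood test, 0 of 6 passed at an adjusted p under 0.05 and 0 had an unadjusted p under 0.05, and 0 passed by DESeq2 or limma. Of all 834 entries tested, 44 passed, or 5.28%, so at this rate 0 of 6 says little about these miRNAs. TPM of the groups did not overlap in 28.3% of all tested entries and in 0 of these 6. The entries of miR-103 and miR-107 among them share sequences, so this count says little as well. The adjusted p ran from 0.360 for miR-33-y to 0.768 for miR-103-z.

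How far the groups may differ is given by the 95% intervals of the fold change after TMM scaling, which sets each library by the bulk of its miRNAs in place of its total. For miR-33-x the log2 fold change was 0.29 (SE 0.18, 95% interval -0.15 to 0.72; edgeR adjusted p = 0.364). On the linear scale this interval reaches from 0.903 to 1.65 times the WR level. After this scaling miR-33-x stood at 61.9, 88.8 and 78.6 CPM in YR and 64.9, 62.6 and 60.4 CPM in WR, with YR replicate 1 inside the WR range. On this scale the groups overlapped for all 6 entries, whereas they did not overlap in 28.8% of all tested entries. This count has the same limit as that in TPM. For miR-33-y the log2 fold change was 0.45 (SE 0.27, 95% interval -0.21 to 1.10; edgeR adjusted p = 0.360), and a difference of up to 2.15 times lies within its interval.

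For miR-103 and miR-107 the log2 fold change was 0.18 for miR-103-y (95% interval -0.15 to 0.52), 0.09 for miR-103-z (-0.35 to 0.53), 0.14 for miR-107-y (-0.26 to 0.53) and 0.13 for miR-107-z (-0.25 to 0.51). In this fit of all 6 libraries, fold changes above 1.45 or below 0.784 lay outside the intervals of all 4. Some fits without 1 library gave wider limits. On the log2 scale the interval of miR-103-z reached 0.71 without YR replicate 2 and -0.65 without WR replicate 2. TMM gave positive values to all 6 entries, but the sign of the 4 changed with the scaling. With library totals alone they were -0.05, -0.14, -0.09 and -0.10 in the same order, while miR-33-x stayed at 0.04 and miR-33-y at 0.22. With TMM kept, all 4 were negative at a minimum mean of 10 TPM. All but miR-103-y were also negative without WR replicate 1 and without WR replicate 2. The median of all tested entries was itself -0.03 with TMM and -0.26 with library totals. Relative to that median, miR-33-x stood 0.31 higher with TMM and 0.29 with library totals. In the same order, miR-33-y stood 0.48 and 0.47 higher and miR-103-y 0.21 and 0.20. The values were smaller for miR-103-z (0.12 and 0.12), miR-107-y (0.17 and 0.16) and miR-107-z (0.16 and 0.16). A change of scaling moves most entries by a similar amount, which subtracting the median takes out. The closeness of the paired values therefore follows from the calculation. The authors' deposited table lists for these 6 entries log2 fold changes of YR over WR between -0.14 and 0.22, with adjusted p between 0.895 and 1.

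**Figure D3:**
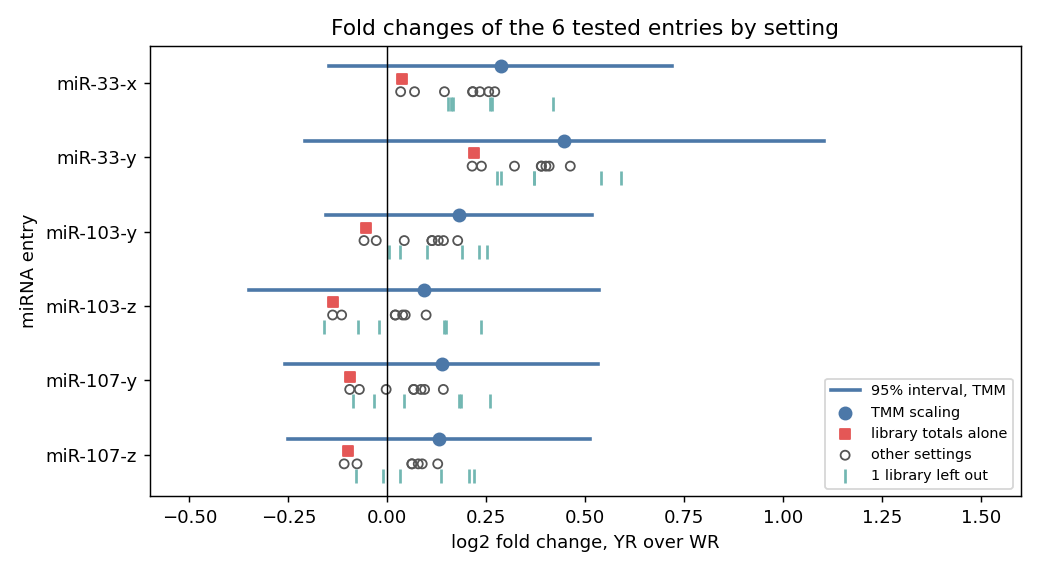
Log2 fold change of YR over WR for each of the 6 tested entries, with TMM scaling and its 95% interval in blue, library totals alone in red, other settings as open circles and fits without 1 library as ticks. All 6 blue intervals include 0, the points of miR-33-x and miR-33-y stay above 0, and those of miR-103 and miR-107 fall on both sides.

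Both arms of miR-33 were read, whereas the x arms of miR-103 and miR-107 had very few reads beside the y and z entries. The x arm held 70.9%, 77.8% and 81.2% of miR-33 reads in YR and 80.1%, 74.4% and 82.4% in WR. Replicate 3 had the largest share in each group, and the groups overlapped. The log2 ratio of the x to the y arm was 1.69 ± 0.40 in YR and 1.87 ± 0.33 in WR (SD, n = 3 each), a difference of -0.18 (SE 0.27, 95% interval -0.83 to 0.46; limma adjusted p = 0.844). Of the 112 families tested with both arms, 1 ratio passed, or 0.893%. The arms of miR-33 were more even than in most families: 70.5% of the 112 had a more unequal ratio, and the median size of the log2 ratio over all 112 was 3.44.

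The x arm of miR-103 had 2, 1 and 3 reads in the YR libraries and 1, 0 and 2 in WR, 6 reads in YR (95% Poisson interval 2.20 to 13.1) and 3 in WR (0.619 to 8.77). The x arm of miR-107 had 6, 0 and 7 reads in YR and 4, 5 and 2 in WR, 13 in YR (6.92 to 22.2) and 11 in WR (5.49 to 19.7). In YR replicate 2 the count of 0 allows a level of up to 0.381 TPM. These intervals cover counting error only, and a difference between the groups was not detectable at this depth.

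**Figure D4:**
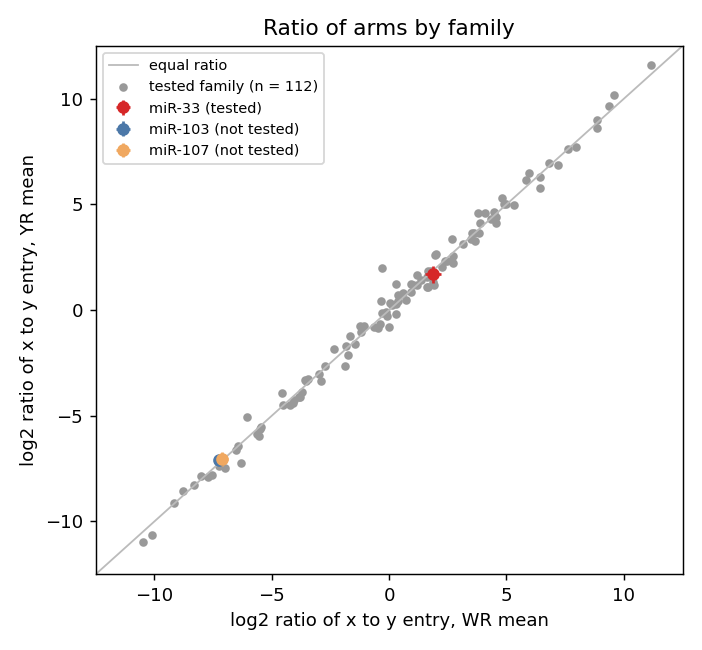
Log2 ratio of the x to the y entry (with 1 TPM added to each), YR mean on the vertical and WR mean on the horizontal axis; grey points are the 112 tested families, and coloured points have SD bars over 3 libraries. miR-33 lies at 1.69 in YR and 1.87 in WR, close to the line of equal ratios, and miR-103 and miR-107 lie near -7. The x arms of miR-103 and miR-107 averaged 0.164 and 0.434 TPM, less than the 1 TPM added. Their plotted ratio is therefore set mostly by the y level and the added 1 TPM.

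The seed of the miR-15 and miR-16 family, known in mammals for restraining the cell cycle, is the start of miR-103 and miR-107 moved by 1 base. Bases 2 to 8 of 8 entries equal bases 1 to 7 of miR-103-y. miR-15-x, with a mean of 1404 TPM over the 6 libraries, is not among these 8. The most abundant of the 8 are shown, with bases 2 to 8 in capitals.
miR-16-x: tAGCAGCAcgtaaatattggag
miR-457-z: tAGCAGCAcatcattactggta
miR-195-x: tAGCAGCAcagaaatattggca
miR-15-z: tAGCAGCAcggaatggtttgt
miR-16-x stood at 3735 ± 262 TPM in YR and 3658 ± 199 TPM in WR (SD, n = 3 each; log2 fold change 0.27, SE 0.11, edgeR adjusted p = 0.218). It was more abundant than any entry of miR-103 or miR-107. miR-457-z stood at 58.7 ± 4.17 TPM in YR and 60.2 ± 7.89 TPM in WR (SD, n = 3 each), and miR-195-x and miR-15-z had means of 6.44 and 3.22 TPM over the 6 libraries.

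The pattern over the 6 libraries was compared with that of the entries of another sequence and a mean of at least 10 TPM, by the root mean square difference of log2 TMM-scaled levels centred on each entry's own mean. This leaves out miR-107-z for miR-103-y and miR-103-z for miR-107-y, which list the same sequence. Among the rest, the entries nearest to miR-103-y were a predicted miRNA, at 0.0463, miR-16-x at 0.0718 and miR-107-y at 0.0834, against a median of 0.329 over 329 entries. The predicted miRNA is ttggtaagacagcacaaacaga. For miR-107-y they were miR-107-z at 0.0711, miR-106-z at 0.0731 and the same predicted miRNA at 0.0733. The nearest to miR-33-x were miR-1338-y at 0.0746, miR-27-z at 0.0911 and miR-1388-y at 0.0939, against a median of 0.347 over 330 entries. miR-1338-y and miR-1388-y list the same sequence. For miR-33-y the nearest were miR-2188-x at 0.149, miR-193-y at 0.197 and miR-206-y, a skeletal muscle miRNA, at 0.198. These are descriptions over 6 libraries that share the same scaling, and the nearest entries lie below the median by selection. The entries of miR-103 and miR-107 are not treated as independent, so their nearness to each other says little.

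Other miRNAs that act on lipid metabolism in mammals were read as 30 entries of 12 families, of which 23 were tested, 0 rose, 1 fell and 22 did not pass. Their median log2 fold change was 0.07, against -0.03 over all 834 tested entries, of which 2.16% rose and 3.12% fell. The one that fell was miR-122-x, a liver miRNA that promotes cholesterol synthesis in mice, at 12.9, 9.27 and 5.33 TPM in YR, against 51.8, 38.8 and 41.4 TPM in WR (log2 fold change -2.05, SE 0.30; edgeR adjusted p = 0.0201). Every YR library was below every WR library. The call was kept without WR replicate 1 (adjusted p = 0.00507) and lost without any other library (adjusted p from 0.0515 to 0.0923), with known names only (adjusted p = 0.0752) and with the replicate number as a block (adjusted p = 0.0839), always with a negative value. The 3 most abundant did not pass. miR-27-y, which restrains fat cell formation in mammals, stood at 42858 ± 3987 TPM in YR and 45164 ± 8366 TPM in WR, miR-30-x at 18672 ± 1868 TPM in YR and 20731 ± 4597 TPM in WR, and miR-128-y at 3900 ± 715 TPM in YR and 3750 ± 1291 TPM in WR (SD, n = 3 each).

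Other miRNAs of insulin and glucose metabolism gave 21 entries, of which 18 were tested, 1 rose, 0 fell and 17 did not pass, with a median log2 fold change of 0.02. The one that rose was miR-26-x, at 70491, 66782 and 59962 TPM in YR, against 60818, 57944 and 54566 TPM in WR (log2 fold change 0.42, SE 0.08; edgeR adjusted p = 0.0409). The lowest YR library was below the highest WR library. This call was lost with library totals alone (log2 fold change 0.19, adjusted p = 0.279) and in each of the other 14 alternatives (adjusted p from 0.0694 to 0.344), though always with a positive value. Without WR replicate 1, where 14.1% of all 834 entries passed, 3 of 23 lipid entries fell, miR-122-x, miR-27-x and miR-96-x. In the insulin list miR-124-y rose and miR-29-x fell there. All of these are named because they passed, from lists chosen with earlier results of these data known. let-7-x, which in mice lowers insulin sensitivity, stood at 28167 ± 276 TPM in YR and 27553 ± 1026 TPM in WR, and miR-143-y at 9017 ± 1972 TPM in YR and 11543 ± 8096 TPM in WR (SD, n = 3 each). The miR-15 and miR-16 family was taken by name, not by seed. Of its 13 entries 9 were tested and 0 passed by edgeR, DESeq2 or limma, with a median of 0.12. Next to miR-16-x, its most abundant entries were miR-15-x, at 1512 ± 52.3 TPM in YR and 1296 ± 87.1 TPM in WR, and miR-15-y, at 61.5 ± 2.03 TPM in YR and 91.8 ± 6.12 TPM in WR (SD, n = 3 each; edgeR adjusted p = 0.0664 and 0.262). Their log2 fold changes were 0.46 and -0.33 with TMM scaling, and 0.22 and -0.58 with library totals alone. The medians of the lists also changed sign with the scaling. With library totals alone they were -0.16 for the lipid list, -0.20 for the insulin list and -0.12 for the miR-15 and miR-16 family. The median of all tested entries was then -0.26.

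**Figure D5:**
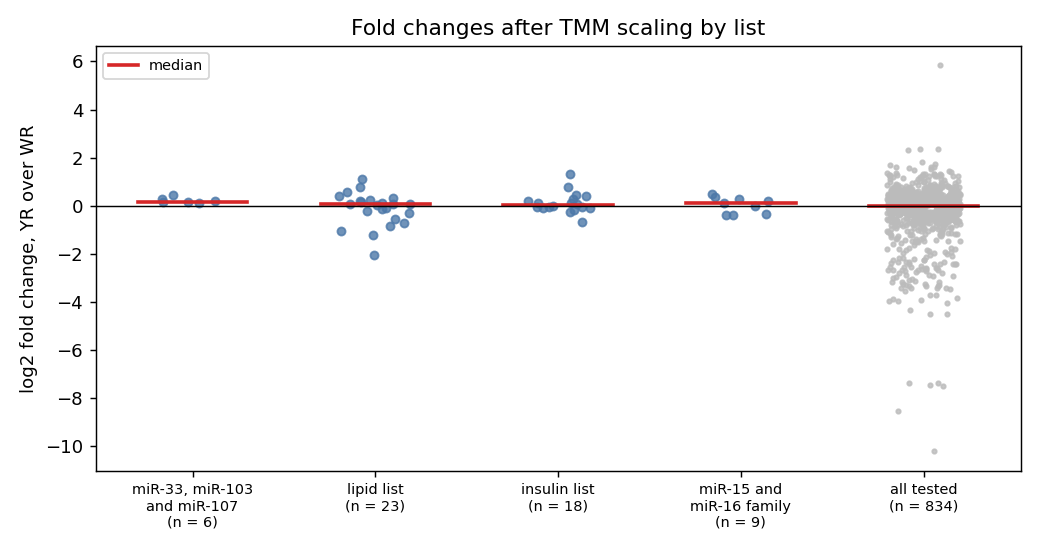
Log2 fold change of YR over WR after TMM scaling, with a point for each tested entry and a red line at the median, for the 6 entries of miR-33, miR-103 and miR-107, the 3 lists and all 834 tested entries. The 6 entries lie between 0.09 and 0.45, and the medians of the 3 lists lie between 0.02 and 0.12.

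Library totals of counts ran from 8245698 to 10336991 in YR and from 8656356 to 9209869 in WR, and 1 read equalled 0.101 to 0.127 TPM. The labelled tissue was set beside miRNAs of skin epithelium (miR-203, miR-205, miR-200 and miR-184), of which 0 of 12 entries lacked reads over the 6 libraries. The lists of liver and nerve miRNAs also had 0 such entries, so this does not check the tissue. The miRNAs of epithelium summed to between 79040 and 95579 TPM in YR and between 105640 and 107650 TPM in WR. These sums did not overlap between the groups, and neither did the TPM of 28.3% of all tested entries. The miRNAs of mesenchyme (miR-199 and miR-214) summed to more, 305169 to 383726 TPM in YR and 303423 to 328661 TPM in WR. Those of skeletal muscle summed to 13007 to 24428 TPM in YR and 17320 to 22073 TPM in WR. The median log2 fold change with TMM was -0.14 for epithelium, 0.58 for mesenchyme and 0.18 for muscle. With library totals alone these were -0.37, 0.32 and -0.02. Pigment cell miRNAs (miR-204 and miR-211) summed to 65207 to 87205 TPM in YR and 65616 to 83984 TPM in WR. Nerve miRNAs summed to 137 to 260 TPM in YR and 113 to 120 TPM in WR, with a median of 0.81 with TMM and 0.62 with library totals. In each of these 2 lists 0 of 5 tested entries passed. The sums show epithelium among other cell types and do not single out skin. Names from an imprinted cluster of placental mammals summed to 3912 TPM in WR replicate 1 and to 116 TPM or less in the other libraries. Without that library the log2 fold changes were 0.16 for miR-33-x, 0.28 for miR-33-y and 0.00 for miR-103-y. They were -0.16 for miR-103-z, -0.09 for miR-107-y and -0.08 for miR-107-z. None of the 6 entries passed (edgeR adjusted p from 0.557 to 0.980, 0 at an unadjusted p under 0.05), against the same 14.1% of all entries. In such bulk samples fewer cells of a type and less RNA per cell cannot be told apart.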

How the data were processed

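Per the labels' protocols, RNA came from a Trizol extraction, and adapter-ligated cDNA libraries were read on an Illumina HiSeq Xten. The deposited whole-number counts were used as they stand. Beside them stands a TPM score made by the authors, which per library sums to between 1039894 and 1052569, and a TPM given for a count of 0 was set to 0. The deposited table further holds the authors' log2 fold change and their p-values. Not given in the sources used here are their test, the aligner, the database, the genome build and how reads with several matches were counted.

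The 834 entries that averaged 1 TPM or more were fitted with edgeR 4.0.16 (R 4.3.3), by TMM scaling, the quasi-likelihood test and Benjamini-Hochberg adjustment over all 834, threshold 0.05. Those left out hold 0.0369% of the counts. The SE is the log2 fold change divided by the square root of F. Arm ratios, log2((x + 1)/(y + 1)) in TPM, were fitted with limma 3.58.1 over families with both arms at a mean of at least 1 TPM. DESeq2 1.42.0 and other settings were alternatives. Both steps were tested on simulated data with larger changes than those of the members, so this does not show how changes of their size fare. Replicates of a group differed by far more than sampling noise (chi-square per degree of freedom 89.8 to 693), and each library counts as 1.

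The members and lists were chosen with earlier results of these data known. Named are all members, entries sharing their sequence, seed or shifted seed (up to 4), the 3 most abundant and any called entry of each list, and the 3 entries nearest in pattern.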

Additional observations from a re-analysis of the deposited data

How the results depend on the processing

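Across 15 alternatives (14 for miR-103-z and miR-107-z, which drop out with 1 entry per distinct sequence), miR-33-x and miR-33-y kept a positive log2 fold change, from 0.03 to 0.42 and from 0.21 to 0.59, and 0 of the 6 entries passed in any setting. The values of miR-103 and miR-107 turned negative in some. For miR-103-y, miR-103-z, miR-107-y and miR-107-z in this order, library totals alone gave -0.0531, -0.137, -0.0934 and -0.100. In the same order limma on log2(TPM + 1) gave -0.0589, -0.138, -0.0950 and -0.109, and a minimum mean of 10 TPM gave -0.0280, -0.115, -0.0706 and -0.0766. With 1 entry per distinct sequence miR-107-y gave -0.0029. Without 1 library, values ran from 0.0048 to 0.251 for miR-103-y, from -0.161 to 0.237 for miR-103-z, from -0.0874 to 0.260 for miR-107-y and from -0.0781 to 0.219 for miR-107-z. The cause was not tested.

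The count of all entries called, 44 (18 higher, 26 lower in YR), was 75 by DESeq2, 16 with the minimum of 10 TPM, 22 with 1 entry per distinct sequence, 0 with known names only and from 1 to 118 without 1 library. With library totals alone it was 1 higher and 29 lower, and with limma 4 higher and 37 lower. With a replicate block 2 entries passed and 1 arm ratio. Same-numbered libraries correlated at 0.260, -0.104 and 0.270 about their group means, against -0.378 to 0.143 for libraries of different number. With 3 libraries in each group, these values cannot decide whether the numbers pair the libraries.

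The count of arm ratios called, 1, was 2 with a pseudocount of 5 TPM and from 0 to 3 without 1 library. The miR-33 difference ran from -0.363 to 0.0360 without 1 library, the positive value being that without YR replicate 1. The difference in the share of miR-107, -0.0206 percentage points, was -0.635 with each sequence counted once and -0.622 with y entries only. Depth limits only the x arms of miR-103 and miR-107.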
